A study of Homo sapiens with 16 samples.

Results

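H3K27ac, the acetylation of lysine 27 of histone H3, was mapped by ChIP-seq in 2 triple-negative breast cancer cell lines, and the 10625 regions described here are the promoter regions that carried a called H3K27ac peak in every one of the 16 peak lists. Peaks of all lists that shared at least 1 bp were merged into 64545 regions, of which 28337 held a peak in all 16 lists. A region was kept if it was under 10 kb wide and lay within 2 kb of a GENCODE hg38 protein-coding transcript start. The regions were therefore selected on being called everywhere, and that presence is the selection rule and not a result. Such a rule also leaves out every promoter at which the peak is lost or gained. The changes below are therefore changes in extent or fold enrichment of a peak that is always there.

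H3K27ac is written by the acetyltransferases p300 and CBP on nucleosomes that flank active promoters and enhancers, and it is removed by histone deacetylases. At a promoter it marks a start site that is open and in use, and bromodomain proteins read the acetylated tail. TNFRSF12A encodes Fn14, to which the TNF family cytokine TWEAK binds, and Fn14 signals through TRAF adaptors to the canonical and non-canonical NF-kB pathways and to the MAP kinases that act on AP-1.

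MDA-MB-231 and Hs578T, both established mesenchymal-like lines without oestrogen receptor expression, were each taken as a CRISPR control and as a knockout of Fn14 (Fn14KO). Each of these was left untreated or was given TWEAK at 10 ng/ml for 48 h after serum starvation, which gives 8 groups of 2 lists. The knockouts were made with an inducible Cas9 vector, and the study's genotyping primers for them are described as being for CRISPR clones, but the number of clones behind each sample was not given in the sources used here. The lists held 39544 to 47197 peaks, hold no reads, and do not show the sequencing depth. With 2 lists a group the p-values measure the spread between these lists. Of the 16 luminal and basal breast identity genes checked, 7 had no peak in reach of a start, among them ESR1, PGR, KRT5 and KRT14. A region in the set was found for 7, the luminal and epithelial genes GATA3, ERBB2, KRT8, KRT18 and EPCAM and the basal genes TP63 and EGFR. FOXA1 had a peak in at most 2 lists, and KRT19 lay in a region of 10 kb or more. Of mesenchymal genes, VIM lay in a region of 10 kb or more, and FN1, SNAI2, ZEB1 and ZEB2 had a region in the set. SNAI1 had a peak in at most 7 lists. CDH2 and TWIST1 had no peak in reach, and neither had the epithelial gene CDH1.

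Most start-site regions were called in every list. Of the start-site regions under 10 kb wide, 787 had a peak in 1 list, 2834 in 2 to 15 lists and 10625 in all 16. The 391 regions with a peak in 15 lists were small, with a median of 809.5 bp under peaks and a median maximum fold enrichment of 3.75. The 10625 regions had medians of 1898.5 bp and 8.60. At the width limit, SEMA3A (9978 bp) and DNMBP (9996 bp) were the widest inside, and F2RL3 (10005 bp) and CTNNA1 (10009 bp) the narrowest outside. BIRC7, with its start 2000 bp away, was the farthest included, and the next region lay 2001 bp from a start. NAMPT, which encodes the rate-limiting enzyme of the NAD salvage pathway, fell just outside, as its region at chr7:106277421-106287712 was 10292 bp wide.

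Of the 10625 regions, 9941 (93.6%) held a start and 684 reached one within 2 kb, and 8909 (83.8%) had the starts of only 1 gene in reach. A head-to-head pair of canonical starts within 1 kb was found in 819 regions (7.71%). In 9118 regions (85.8%) every list had exactly 1 peak. In all, 9585 genes named a region and 10989 had a start in reach. BRD2, which encodes a bromodomain reader of acetylated histones, had the highest median fold enrichment over the 16 lists, 53.7 (range 35.4 to 75.3), in a region that HLA-DMA shares. PRDM10 (40.8), TNIP1 (40.8), MISP (40.4) and ADPRHL1 (37.1) followed, and their ranges over the lists overlapped one another.

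The promoters of these genes had the base composition of CpG island promoters. RefSeq promoters (GRCh38.p14, 250 bases before to 50 after the start) were found for 8917 of the 10989 genes and for 15307 protein-coding genes in all, of which 4767 had no region in reach. A GC content over 55% with a CpG ratio over 0.6 was found in 76.4% of the promoters in reach, in 60.2% of all promoters and in 30.1% of those with no region in reach. The median CpG ratio was 0.847, 0.767 and 0.36 in the same order. Letters were searched on both strands. GGGCGG, the GC box bound by SP1 factors, stood in 70.5% of the promoters in reach, 59.2% of all and 36.7% of those with no region, and CCGGAA, the ETS motif, in 31.6%, 23.1% and 8.98%. TATAAA was rarer in reach (5.32%) than in all (9.64%) and than where no region was near (17.7%). The NRF1 motif GCGCATGC stood in 5.92%, 4.25% and 1.55%, and CCAAT differed little (37.4%, 36.5% and 35.2%). Of the motifs of the TWEAK pathway, TGANTCA, the AP-1 motif, was rarer in reach (4.38%, 5.75% and 8.10%), and the NF-kB motif was slightly more frequent (12.7%, 12.3% and 10.8%).

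Promoters are shown for 4 of the genes named below for the change of covered length with TWEAK in control cells, 3 that rose (CXCL3, TFPI2, GFM1) and 1 that fell (IL11), because they differ in whether they hold those motifs. Capitals mark matches to the NF-kB or AP-1 motif, and overlapping matches are joined. CXCL3 (chr4:74038640-74038939, minus strand) holds 2 overlapping NF-kB matches, TFPI2 (chr7:93890704-93891003, minus strand) 1 NF-kB and 1 AP-1 match, IL11 (chr19:55370414-55370713, minus strand) 1 AP-1 match, and GFM1 (chr3:158644277-158644576, plus strand) none of either.
CXCL3: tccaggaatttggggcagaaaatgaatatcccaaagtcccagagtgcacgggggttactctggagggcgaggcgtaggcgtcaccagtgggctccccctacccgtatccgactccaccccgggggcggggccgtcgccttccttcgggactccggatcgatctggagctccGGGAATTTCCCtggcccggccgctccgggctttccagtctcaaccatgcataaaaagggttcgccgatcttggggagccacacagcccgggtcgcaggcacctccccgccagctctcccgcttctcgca
TFPI2: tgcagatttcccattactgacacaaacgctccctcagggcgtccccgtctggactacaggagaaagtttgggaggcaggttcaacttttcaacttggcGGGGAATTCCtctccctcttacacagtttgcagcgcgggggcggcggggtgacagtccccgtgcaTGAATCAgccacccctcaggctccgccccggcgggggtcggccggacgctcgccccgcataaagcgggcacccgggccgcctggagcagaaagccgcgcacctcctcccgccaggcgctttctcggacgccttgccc
IL11: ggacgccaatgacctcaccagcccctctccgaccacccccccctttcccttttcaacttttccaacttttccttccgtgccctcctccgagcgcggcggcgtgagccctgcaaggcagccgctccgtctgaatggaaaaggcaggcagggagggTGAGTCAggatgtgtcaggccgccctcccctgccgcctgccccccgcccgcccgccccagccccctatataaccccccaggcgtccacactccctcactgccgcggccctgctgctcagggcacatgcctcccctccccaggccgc
GFM1: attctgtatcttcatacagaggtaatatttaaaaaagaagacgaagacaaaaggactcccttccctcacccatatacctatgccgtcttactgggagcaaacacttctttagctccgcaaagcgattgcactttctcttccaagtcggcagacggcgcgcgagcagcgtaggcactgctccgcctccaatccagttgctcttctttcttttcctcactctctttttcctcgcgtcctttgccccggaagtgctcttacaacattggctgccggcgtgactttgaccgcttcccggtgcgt
A rise in covered length was thus seen with and without such letters in the window, and a match is a description and not a bound site. Among genes whose region rose in fold enrichment in control cells only, as defined below, 15.2% of the matched promoters held the NF-kB motif and 7.66% the AP-1 motif, against 11.3% and 5.69% among those that fell. For covered length the NF-kB shares were 18.6% and 13.6%, and AP-1 went the other way, 3.09% of 97 promoters of genes that rose and 8.74% of 103 that fell. Over whole regions, AP-1 letters occurred 0.434 times per kb in regions that rose, 0.321 in regions that fell and 0.301 in all 10625. For NF-kB letters the densities were 0.446, 0.451 and 0.43. These shares were not tested.

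The median covered length per list ran from 1650 to 2077 bp and the median of the highest fold enrichment per region from 7.29 to 10.5. The regions held 29.4% to 32.8% of all bp under peaks in each list. TWEAK changed the median covered length of control lists by -54.5 bp (two-sided exact permutation test within line, p = 0.444) and the median fold enrichment by 0.262 (exact p = 0.389). In Fn14KO lists the differences were -17.2 bp (exact p = 0.889) and -0.155 (exact p = 0.778). With 36 arrangements the smallest p was 0.0556, so no single-genotype test could pass 0.05. The difference of the TWEAK effects between genotypes was 0.417 in fold enrichment (exact p = 0.319).

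Between lines the median covered length differed by -169.4 bp in MDA-MB-231 against Hs578T (exact permutation p = 0.0139, 0.15 after adjustment over 15 tests), which did not pass. Median fold enrichment differed by -1.01 between Fn14KO and control lists (exact permutation p = 0.0586, adjusted 0.293). That difference lay in MDA-MB-231, in which the 4 control lists had medians of 9.34 to 10.5 and the 4 knockout lists 7.29 to 8.50, without overlap. In Hs578T the knockout lists (8.56 to 8.98) and the control lists (8.22 to 8.62) overlapped. The median −log10 q over the regions was also lower in the MDA-MB-231 knockout lists, 12.1 to 20.2 against 24.1 to 29.6 in the control lists of that line, and the part of this difference in the genotype results was not tested. The spread among promoters was wider in both TWEAK lists of each control line, which was not tested. The interquartile range of log2 fold enrichment was 1.19 and 1.12 in untreated and 1.23 and 1.22 in TWEAK lists of control MDA-MB-231 cells, and 1.03 and 1.00 against 1.10 and 1.09 in control Hs578T cells. In knockout cells the TWEAK lists (0.926 to 1.03) overlapped the untreated ones (0.989 to 1.04).

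**Figure D1:**
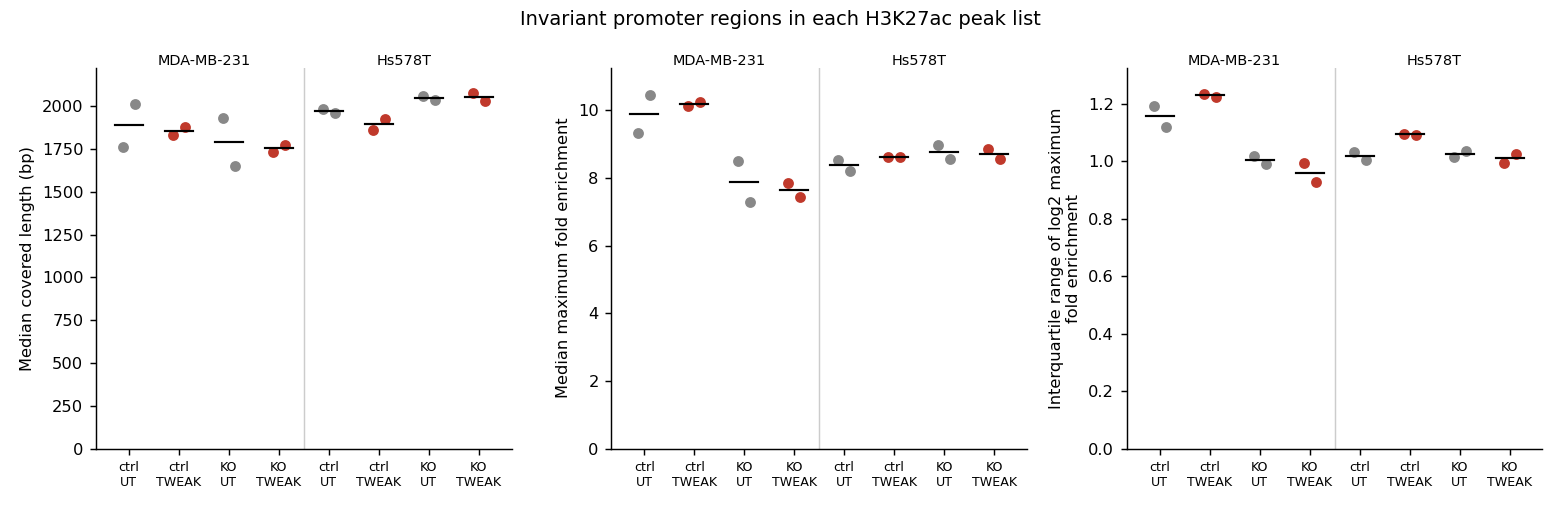
Median covered length (bp), median maximum fold enrichment and interquartile range of log2 maximum fold enrichment over the 10625 regions, for each list (grey points untreated, UT, red points TWEAK, black bars the mean of 2 lists, ctrl control and KO Fn14KO cells). The MDA-MB-231 knockout lists sit between 7.29 and 8.50 in median fold enrichment, below the 4 control lists of that line, and only in control cells do both TWEAK lists exceed both untreated lists in interquartile range.

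Maximum fold enrichment is the deposited fold over input of the peak with the highest value in the region. For a broad peak MACS2 gives the mean over the peak and no summit, and height below means this value. Each list was centred on its median, and log2 covered length and log2 maximum fold enrichment of single regions were compared with limma over all 28337 regions. Adjusted p-values are Benjamini-Hochberg values over all of these, and a change below refers to this relative scale unless raw values are given. In the median region the line took 22.7% of the variance of log2 fold enrichment, genotype 7.09%, treatment 4.26%, the genotype by treatment term 4.73% and the replicates 19.0%. For covered length the replicates took 37.5% and the line 12.4%. The replicates hold 8 degrees of freedom and each other source 1, so their shares are not directly comparable.

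TWEAK changed the height of many invariant promoters in control cells, and no change was called in Fn14KO cells. In control MDA-MB-231 cells 1063 regions were higher and 1552 lower in fold enrichment (10.0% and 14.6%), fewer than over all regions tested (17.5% higher and 18.1% lower). In control Hs578T cells 923 were higher and 981 lower, or 8.69% and 9.23% against 15.2% and 14.3% of all regions. In both knockouts the count was 0 by limma, against 0.0% (MDA-MB-231) and 0.00353% (Hs578T) of all regions, with 627 and 277 regions at an unadjusted p under 0.05 (5.90% and 2.61%). Distal regions under 10 kb wide with a peak in every list were called more often, 42.5% of 16952 in MDA-MB-231 and 36.7% in Hs578T, against 24.6% and 17.9% of the promoters. Their median absolute log2 change was 0.298 and 0.271, and that of the promoters 0.183 and 0.159.

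Covered length gave fewer calls. It was higher at 184 and lower at 226 promoters in control MDA-MB-231 cells, or 1.73% and 2.13% against 3.89% and 4.56% of all regions. In control Hs578T cells it was higher at 114 and lower at 166, or 1.07% and 1.56% against 2.16% and 2.89% of all regions. In the MDA-MB-231 knockout 1 was higher and 1 lower (0.0529% of all regions), and in the Hs578T knockout the count was 0 by limma (0.0%), with 787 and 325 at an unadjusted p under 0.05. The direction of fold enrichment depended on the scaling. Without centring the calls were 1215 higher and 739 lower in control MDA-MB-231 cells, and 931 and 523 in control Hs578T cells. After quantile normalization they were 756 and 1273, and 716 and 1024. Measured in a window of 2 kb either side of the start they were 1033 and 991, and 735 and 635. For covered length without centring they were 106 and 177, and 49 and 163.

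Promoters called in both control lines nearly always had the same direction. In fold enrichment 624 were called higher and 668 lower in both (5.87% and 6.29%, against 11.8% and 10.7% of all regions), 2 were called in opposite directions, and 1321 were called only in MDA-MB-231 and 610 only in Hs578T. In covered length 59 were higher and 65 lower in both (0.555% and 0.612%, against 1.34% and 1.47%), 0 were called in opposite directions, and 286 were called only in MDA-MB-231 and 156 only in Hs578T. A call in 1 line alone does not show that the lines differ. The difference of the TWEAK effect between the control lines itself was called at 0 promoters in fold enrichment by limma (0.0% of all regions, with 670 at an unadjusted p under 0.05), and at 1 in covered length (0.0212% of all regions, with 433 unadjusted).

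The TWEAK effect differed between control and Fn14KO cells at 2314 promoters in fold enrichment (21.8%, against 32.7% of all regions) and at 303 in covered length (2.85% against 6.12%). A region was counted as changed in both control lines only when both TWEAK lists lay beyond both untreated lists in each control line, in 1 direction, and the mean TWEAK effect in control cells and its difference from that in Fn14KO cells both passed an adjusted p of 0.05. By fold enrichment 887 rose and 1119 fell (8.35% and 10.5%, against 15.5% and 14.4% of all regions). By covered length 122 rose and 141 fell (1.15% and 1.33%, against 2.61% and 3.02%). The 887 had a median log2 change of 0.49 in MDA-MB-231 and 0.42 in control Hs578T cells, and -0.04 and -0.02 in the knockouts. The 1119 had -0.49 and -0.42, and 0.06 and 0.02 in the knockouts. The genes had been selected on these differences, so the sizes are descriptions. The split of the 887 and 1119 was 1110 and 494 without centring, 631 and 1117 after quantile normalization and 858 and 706 in the start-site window. That of the 122 and 141 was 68 and 117 without centring, 115 and 143 after quantile normalization, and only 32 and 51 in the start-site window. Of the 122 regions that rose in length, 61 (50%) also rose in fold enrichment, 6.88% of the 887, and of the 141 that fell, 80 (56.7%) also fell, 7.15% of the 1119.

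**Figure D2:**
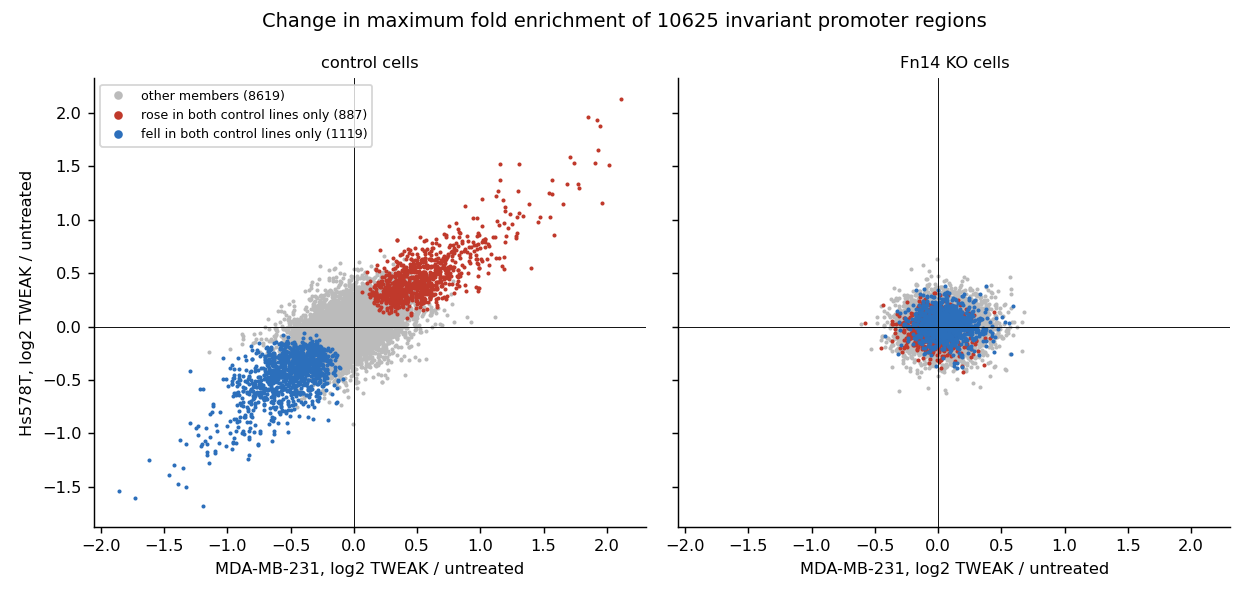
Log2 TWEAK over untreated of maximum fold enrichment for the 10625 regions, MDA-MB-231 on the horizontal and Hs578T on the vertical axis, in control cells (left) and in Fn14KO cells (right). Red marks the 887 regions and blue the 1119 regions that rose or fell in both control lines only, which were chosen by these values, and in the knockout panel both colours lie around 0.

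CXCL3, a chemokine that draws neutrophils through CXCR2, widened in all 4 TWEAK control lists. Its region (chr4:74030091-74039878, promoter above) covered 1999 and 2076 bp in untreated and 9168 and 9546 bp in TWEAK lists of control MDA-MB-231 cells. In control Hs578T cells the values were 2372 and 2803 bp, and 9760 and 9764 bp. All 8 knockout lists lay between 1259 and 2791 bp, so the 4 TWEAK control lists stood apart from the other 12. The log2 change was 2.24 ± 0.21 (SE, limma adjusted p = 0.00013) in MDA-MB-231 and 2.0 ± 0.21 (limma adjusted p = 0.00056) in Hs578T. Reads of the CXCL1 to CXCL3 genes, which are close copies, may be shared, and how such reads were treated was not given in the sources used here.

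SAA1, an acute phase protein, covered 295 and 407 bp in untreated and 2806 and 2661 bp in TWEAK lists of control MDA-MB-231 cells (chr11:18265851-18268777). In control Hs578T cells it covered 388 and 411 bp, then 2022 and 1487 bp. The knockout lists held 307 to 975 bp and did not reach the TWEAK control lists. The log2 changes were 3.02 ± 0.43 and 2.20 ± 0.43 (limma adjusted p = 0.0013 and 0.013), with SAA2 as a near-identical copy. Its maximum fold enrichment did not pass in either line (0.00 and 0.36 on the log2 scale, with limma adjusted p = 0.99 and 0.072). The covered length thus grew with no called change in fold enrichment, which is a mean over the peak and does not show its summit.

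MAGOHB, a core subunit of the exon junction complex, also widened in both control lines (chr12:10612607-10620470). It covered 3025 and 3396 bp untreated and 7001 and 6816 bp with TWEAK in control MDA-MB-231 cells, and 3487 and 3352 bp, then 6803 and 7704 bp, in control Hs578T cells. The log2 changes were 1.15 ± 0.08 and 1.17 ± 0.08 (limma adjusted p = 1.6e-05 and 4e-05), and the knockout lists stayed between 3336 and 4015 bp. GFM1, a mitochondrial translation elongation factor, went from 669 and 840 bp to 2201 and 2150 bp in MDA-MB-231 and from 669 and 727 bp to 2425 and 2245 bp in control Hs578T cells. Its fold enrichment was lower with TWEAK in MDA-MB-231 (-0.40 on the log2 scale, limma adjusted p = 0.0066), so length rose while the mean over the peak fell. Whether the added length lowered that mean was not tested.

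NFKBIE encodes IkB-epsilon, which holds NF-kB dimers in the cytoplasm. Its region (chr6:44262416-44266164) covered 1121 and 2073 bp untreated and 3573 and 3710 bp with TWEAK in control MDA-MB-231 cells, and 1667 and 993 bp, then 3696 and 3663 bp, in control Hs578T cells. Fold enrichment went from 5.08 and 6.90 to 12.7 and 13.1, and from 3.41 and 4.25 to 6.69 and 7.02. TFPI2, a secreted inhibitor of serine proteases of the matrix, covered 483 and 1459 bp untreated and 1937 and 2294 bp with TWEAK in MDA-MB-231, and 999 and 1226 bp, then 2341 and 2353 bp, in control Hs578T cells. The Hs578T change taken alone missed the threshold (1.17 ± 0.36, limma adjusted p = 0.087). ART4, the carrier of the Dombrock blood group, showed 3.31 ± 0.49 in MDA-MB-231 and 1.31 ± 0.49 in Hs578T, the second again short of the threshold (limma adjusted p = 0.16).

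FGFR1, a receptor tyrosine kinase, had 2 neighbouring regions that behaved differently. At chr8:38458538-38460422 covered length rose by 1.15 ± 0.21 and 1.27 ± 0.21 on the log2 scale, and fold enrichment went from 3.74 and 5.06 to 14.7 and 14.9 (control MDA-MB-231 cells) and from 3.93 and 2.90 to 7.92 and 9.96 (control Hs578T cells). In the knockouts it stayed at 3.13 to 4.21. PSTPIP1, a cytoskeletal adaptor, widened by 1.53 ± 0.25 and 1.79 ± 0.25 in control cells, but the Hs578T knockout also had 246 and 307 bp untreated against 626 and 809 bp with TWEAK, a difference that did not pass (limma adjusted p = 0.55). CANT1, a nucleotidase of the Golgi, widened by 1.26 ± 0.24 and 1.47 ± 0.24 with no called change in fold enrichment. Its neighbour on chromosome 17, C1QTNF1, is described with the regions that gained height.

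IL11, a cytokine of the IL-6 family, had a region that shrank in both control lines. Its region (chr19:55368748-55377317, promoter above) covered 6572 and 8325 bp untreated and 1554 and 2778 bp with TWEAK in control MDA-MB-231 cells. In control Hs578T cells it covered 4411 and 3753 bp, then 490 and 325 bp. All knockout lists held 2170 to 4474 bp. The log2 changes were -1.79 ± 0.27 and -3.27 ± 0.27 (limma adjusted p = 0.0019 and 0.00016), and fold enrichment fell too, by 0.63 and 0.66 on the log2 scale.

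SEMA6B, a transmembrane semaphorin of axon guidance, covered 3136 and 3370 bp untreated against 1141 and 675 bp with TWEAK in control MDA-MB-231 cells, and 3369 and 3367 bp against 949 and 1270 bp in control Hs578T cells. The 8 knockout lists held 2191 to 3863 bp. GALNT6, which starts mucin-type O-glycans, covered 1983 and 2835 bp, then 952 and 594 bp, in MDA-MB-231, and 3029 and 3951 bp, then 705 and 1136 bp, in control Hs578T cells. LAIR2, a secreted collagen-binding receptor, went from 2629 and 2718 bp to 656 and 716 bp and from 1925 and 1747 bp to 268 and 618 bp. In each of these genes all TWEAK control lists lay below the untreated control lists, as the rule required. MBTPS1, the site-1 protease that activates SREBP, fell by 1.60 and 1.57 on the log2 scale (SE 0.17 in both), a call lost in the start-site window (mean of both lines -0.43, limma adjusted p = 0.621). MFSD6, PPP1R7, IFITM10, ABCC12 and BAMBI completed the 10 that fell. BAMBI, a decoy of TGF-beta receptors, had -2.23 ± 0.69 and -1.70 ± 0.69, neither of which passed in a single line, and its call was kept in only 3 of the 16 fits that left out 1 list.

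**Figure D3:**
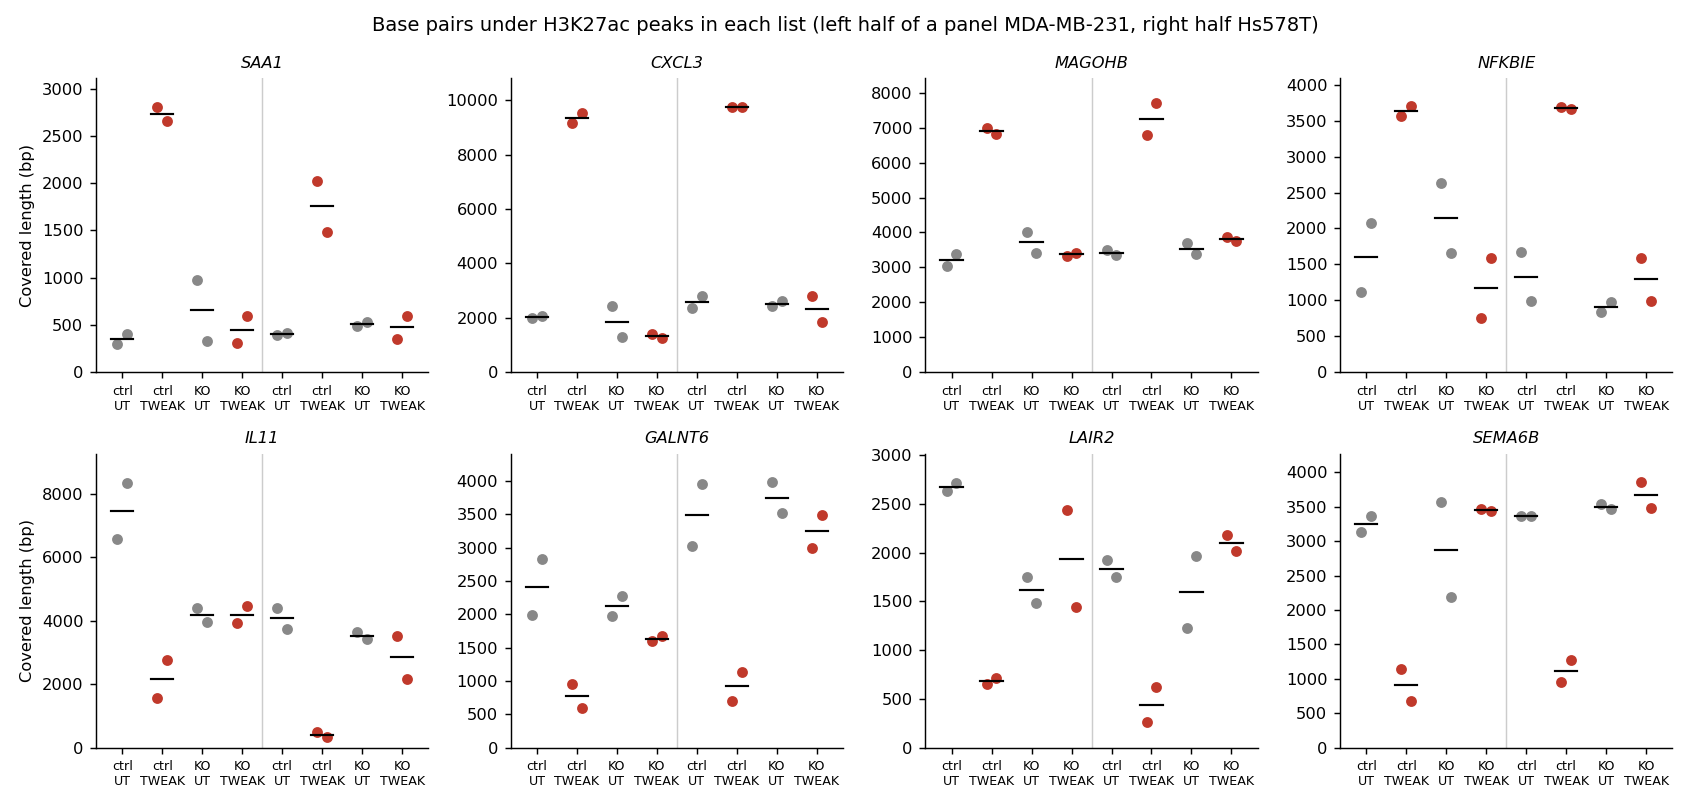
Covered length (bp) in each list for 4 regions that rose and 4 that fell with TWEAK in both control lines only (grey points untreated, UT, red points TWEAK, black bars the mean of 2 lists, MDA-MB-231 at the left of a panel). In control cells the red points stand apart from the grey ones in all 8 panels, which the rule that chose these regions required. In knockout cells SAA1 held 307 to 975 bp and CXCL3 1259 to 2791 bp.

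By height, the strongest gains were at other genes. C1QTNF1, a secreted CTRP family protein (chr17:79035907-79040736), went from 5.60 and 6.70 to 28.8 and 27.4 in fold enrichment in control MDA-MB-231 cells and from 4.26 and 4.02 to 20.0 and 17.9 in control Hs578T cells. CLDN12, a tight junction claudin (chr7:90381845-90386197), went from 8.17 and 9.09 to 33.2 and 37.3 and from 9.04 and 7.66 to 32.0 and 31.7. Their knockout lists held 3.33 to 7.79 and 6.69 to 9.26. FGD6, an exchange factor for CDC42, had log2 changes of 1.92 and 1.94, and FABP6, a bile acid binding protein, 1.85 and 1.96. Covered length of FGD6 and FABP6 was not called under the same rule.

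The deepest losses of height were at RCL1, which processes ribosomal RNA, from 11.8 and 9.56 to 3.49 and 3.28 in MDA-MB-231 and from 8.48 and 7.40 to 2.68 and 2.73 in control Hs578T cells. LAIR2 followed with log2 changes of -1.85 and -1.54, GALNT6 with -1.39 and -1.48, DDR1, a collagen-activated kinase, with -1.46 and -1.39, and GPR157 with -1.35 and -1.33. For DDR1 the untreated control lists held 11.7 to 15 and the TWEAK lists 3.95 to 6.27. For the 10 genes named by height the knockout changes ran from -0.30 to 0.21 on the log2 scale, and none passed.

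Many of the regions that moved most were not at the canonical start. The canonical transcript of a gene started within 2 kb of 9176 regions (86.4%), and 1449 (13.6%) had only other starts in reach. Of the latter 243 rose and 248 fell in fold enrichment in control cells only (16.8% and 17.1%), against 644 and 871 (7.02% and 9.49%) of the former. Their median absolute log2 change was 0.245 against 0.147, with a lower median fold enrichment, 7.16 against 8.86. Of the 28 distinct genes named above by the TWEAK rule, 12 had no canonical start in reach: PSTPIP1, FGFR1, LAIR2, GALNT6, MFSD6, MBTPS1, SEMA6B, C1QTNF1, FGD6, CLDN12, RCL1 and GPR157. Such regions can hold an enhancer inside or beside a gene as well as a start, and the peak lists cannot tell these apart. In height, gains but not losses were more frequent in broad regions: in 4 equal classes of rising median covered length 3.69%, 6.02%, 9.42% and 14.3% rose in height in control cells only, and 9.67%, 10.4%, 11.3% and 10.8% fell. In covered length both climbed with breadth, as 0.64%, 0.866%, 1.36% and 1.73% rose and 0.866%, 1.09%, 1.24% and 2.11% fell. Covered length was itself among the measures of these lists, so the classes are a description.

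More NF-kB regions were called higher than lower with TWEAK in control cells, and the list was not tested as a set. All 16 listed subunits and inhibitors of NF-kB had a region, 19 in all. In control MDA-MB-231 cells 9 were higher and 4 lower in fold enrichment (17.5% and 18.1% of all regions). In control Hs578T cells 10 were higher and 1 lower (15.2% and 14.3% of all regions). The list's median log2 change was 0.19 and 0.38, against -0.04 and -0.01 over the 10625 regions, and it stayed above 0 without centring, after quantile normalization and in the start-site window. TNIP1, a partner of the ubiquitin-editing enzyme A20, had 38.1 and 44 untreated against 71.0 and 72.5 with TWEAK in MDA-MB-231, and 39.2 and 39.5 against 59.5 and 56.9 in control Hs578T cells. Of its 3 regions 1 went the other way (-0.46 and -0.61 on the log2 scale). NFKBIZ, an inducible nuclear IkB, rose by 0.57 and 0.46.

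Upstream of NF-kB the TWEAK receptor and its adaptors had 14 regions, with median log2 changes of -0.05 and -0.01. In MDA-MB-231 4 were higher and 2 lower (17.5% and 18.1% of all regions). In control Hs578T cells 3 were higher and 2 lower (15.2% and 14.3% of all regions). TRAF2, the ubiquitin ligase that binds Fn14, went from 7.66 and 8.90 to 21.9 and 23.9 and from 7.02 and 5.60 to 14.0 and 15, with 6.22 to 8.22 in all knockout lists. TRAF3, which keeps NIK degraded, rose by 0.87 and 0.71 on the log2 scale. MAP3K14, which encodes NIK, fell (-0.39 and -0.41), as did 1 of the 3 RIPK1 regions (-0.46 and -0.59), while the other two RIPK1 regions had -0.18 and -0.18, and 0.04 and 0.13, and were not called.

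Cytokines and chemokines had only 9 regions. In MDA-MB-231 4 were higher and 2 lower (17.5% and 18.1% of all regions). In control Hs578T cells 5 were higher and 1 lower (15.2% and 14.3% of all regions). CSF3, the granulocyte growth factor, went from 6.86 and 5.92 to 12.5 and 11.5 and from 4.62 and 4.41 to 8.57 and 8.78. Interferon response genes had 20 regions, 6 higher and 1 lower in MDA-MB-231, and 3 higher and 0 lower by limma in control Hs578T cells (6 and 0 at an unadjusted p under 0.05). IFIH1, a sensor of viral RNA, rose by 0.99 and 0.55 on the log2 scale.

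The proteasome was the largest list that moved in 1 direction. Of its 32 regions, from 30 of 31 genes, 10 were higher in MDA-MB-231 (17.5% of all regions) and 9 in control Hs578T cells (15.2%). By limma 0 were lower in either line (18.1% and 14.3% of all regions), also at an unadjusted p under 0.05. The median log2 change was 0.24 and 0.23, and 8 regions rose in both control lines only. After quantile normalization 6 were higher in each line, and without centring 12 and 9. PSMB7, a catalytic subunit, went from 10.2 and 12.6 to 19.9 and 21.2 and from 11.5 and 11 to 17.9 and 19.1, with 8.88 to 11 in the knockout lists. PSMA1, of the outer ring, rose by 0.77 and 0.47. The other housekeeping lists moved less: of 42 ribosomal protein regions 4 were higher and 1 lower in MDA-MB-231 and 8 higher and 1 lower in Hs578T (0 and 1, and 5 and 1, after quantile normalization), and of 36 oxidative phosphorylation regions 3 were higher and 2 lower, and 2 higher and 0 lower by limma (4 and 0 at an unadjusted p under 0.05).

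**Figure D4:**
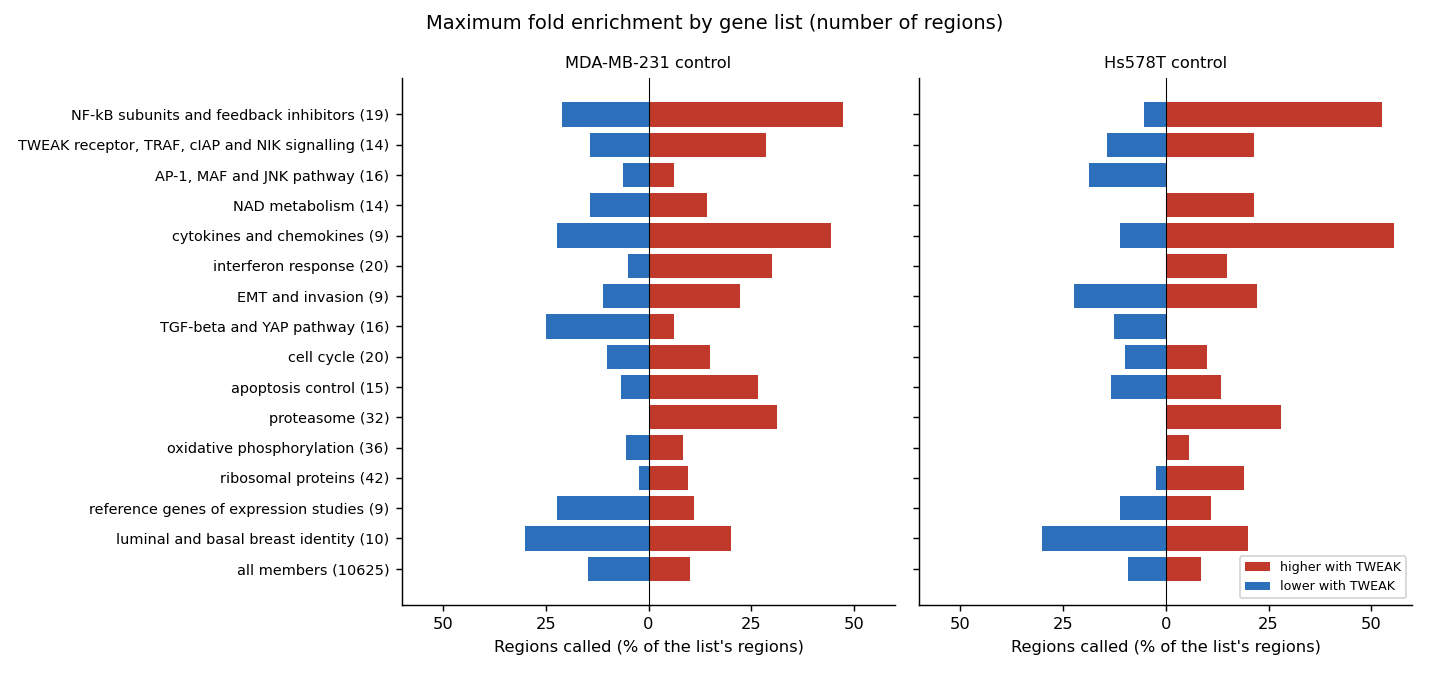
Share of each list's regions, in % of the number of regions in brackets, called higher (red, right of 0) or lower (blue, left of 0) with TWEAK in maximum fold enrichment by limma, in MDA-MB-231 control (left) and control Hs578T cells (right), with all 10625 regions as the last bar. The NF-kB list, with 9 of 19 and 10 of 19 regions higher, and the cytokine list, with 4 of 9 and 5 of 9, reach furthest to the right, and the proteasome list has no blue bar.

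AP-1 and TGF-beta genes had at most 1 region called higher in either line, in small lists. Over all 10625 regions 10.0% were higher and 14.6% lower in control MDA-MB-231 cells, and 8.69% and 9.23% in control Hs578T cells. Of 16 regions of AP-1, MAF and JNK pathway genes 1 was higher and 1 lower in MDA-MB-231, and 0 were higher (also at an unadjusted p under 0.05) and 3 lower by limma in control Hs578T cells. FOS, an immediate early subunit of AP-1, went from 24.5 and 25.9 to 13.9 and 14.2 and from 23.7 and 22.7 to 11 and 11.8. At FOS the MDA-MB-231 knockout lists held 9.43 to 12.8 and those of Hs578T 25.7 to 30.5, and TWEAK changes there were not called (0.11 and -0.15 on the log2 scale). Of 16 TGF-beta and YAP pathway regions 1 was higher and 4 lower, and 0 higher and 2 lower by limma (1 higher and 3 lower unadjusted) in the same order. LATS2, a Hippo kinase, fell by 0.46 and 0.63, and TEAD2, a YAP partner, fell by 0.59 and 0.42. CCN2, a YAP target, showed 0.52 and -0.31 with the sign of its mean resting on the setting. The mean was 0.10 as reported (limma adjusted p = 0.559) and -0.62 in the start-site window (limma adjusted p = 0.000842).

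The remaining lists were split. For comparison, 17.5% of all regions were higher and 18.1% lower in MDA-MB-231, and 15.2% and 14.3% in control Hs578T cells. NAD metabolism genes had 14 regions, 2 higher and 2 lower in MDA-MB-231 and 3 higher and 0 lower by limma (5 and 1 unadjusted) in control Hs578T cells, among them NNMT, the nicotinamide methyltransferase (0.55 and 0.36), and 1 of the 2 NADK regions, of the NAD kinase (-0.56 and -0.30, the second with a limma adjusted p = 0.053). EMT and invasion genes had 9 regions, 2 higher and 1 lower, and 2 higher and 2 lower, with CD44 up (0.60 and 0.47) and FN1, fibronectin, down from 15.8 and 17.2 to 9.95 and 9.68 and from 10.9 and 10.6 to 7.87 and 8.31. Cell cycle genes had 20 regions, 3 higher and 2 lower, and 2 higher and 2 lower, and apoptosis control genes 15, 4 higher and 1 lower, and 2 higher and 2 lower. Of the 10 luminal and basal identity regions 2 were higher and 3 lower in each line. KRT8, a luminal keratin, fell at 2 regions, the main one from 34.6 and 37.3 to 22 and 23.5 and from 40.7 and 40.8 to 27 and 30.2. Genes often used as references had 9 regions, 1 higher and 2 lower, and 1 higher and 1 lower. Ribosomal, proteasome and reference promoters were thus not free of calls.

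Fn14 knockout by itself, in untreated cells, was recorded very differently in the 2 lines. In MDA-MB-231 400 promoters were higher and 2052 lower in fold enrichment, a share of 23.1% against 23.6% of all regions. In Hs578T 53 were higher and 65 lower, 1.11% against 2.46%. The difference between the lines was called at 1586 promoters, 259 higher and 1327 lower in MDA-MB-231 relative to Hs578T (14.9% against 17.1% of all regions). Only 2 were higher and 9 lower in the knockouts of both lines (0.0706% and 0.208% of all regions), and 31 were called in opposite directions. The MDA-MB-231 split rested on the scaling, at 71 higher and 4413 lower without centring, where the median log2 difference was -0.32 instead of -0.11, 447 and 1116 after quantile normalization, and 684 and 847 in the start-site window. In covered length 33 were higher and 62 lower in MDA-MB-231 (1.6% of all regions called), 9 higher and 5 lower in Hs578T (0.24%), and the difference between the lines was called at 25 (0.445%).

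The region at the start of TNFRSF12A, the edited gene, was among the 9. It spans chr16:3019824-3024891, is named by the nearest start, that of HCFC1R1, and also serves THOC6 and CLDN6. Its fold enrichment was 32.6 to 38.2 in the 8 control lists and 16.2 to 22.3 in the 8 knockout lists. The 2 ranges did not overlap, in a comparison in which 23.6% (MDA-MB-231) and 2.46% (Hs578T) of all regions were called. The log2 difference of untreated cells was -0.73 ± 0.10 (limma adjusted p = 1.9e-05) in MDA-MB-231 and -0.63 ± 0.10 (limma adjusted p = 0.00074) in Hs578T, and between -0.94 and -0.48 without centring or after quantile normalization. TWEAK moved it by -0.01 and -0.02 in control cells. Its covered length, 4504 to 4944 bp in control and 4413 to 4705 bp in knockout lists, was not called (0.04 and -0.13 on the log2 scale). The peak thus kept its length and had a lower fold enrichment in cells edited at this gene.

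Of the other 8 that were lower in both lines, 7 are named here because the count was small and after their values were seen, WASHC1, PAX8, ZNF114, ASB2, CHPF, TIGD7 and IGSF23, and the 2 higher were ACOT7 and DENND2D. WASHC1, of the WASH complex of endosomal sorting, held 10.0 to 15 in the control and 5.55 to 7.01 in the knockout lists (-0.80 and -0.78 on the log2 scale), and has several near-identical subtelomeric copies, so its reads are uncertain. ZNF114 held 9.28 to 15 in control and 5.44 to 9.14 in knockout lists, and within each line the 2 sets did not overlap. PAX8, a lineage transcription factor, had -0.80 and -0.44, and the 4 Hs578T knockout lists (12.8 to 16.9) overlapped the control lists (12.7 to 18.4). WASHC1 and the TNFRSF12A region kept both calls under every other scaling, peak threshold and window tried, and each of the other 9 regions lost at least 1. In covered length the 2 regions called higher in both knockouts (0.0141% of all regions) were FGFR1 at chr8:38453894-38457420 (1.24 and 1.36, SE 0.20 in both) and ANXA8L1 (0.64 and 1.29, SE 0.10 in both). At that FGFR1 region untreated control lists held 1054 to 1244 bp and untreated knockout lists 2165 to 3403 bp. ANXA8L1, an annexin with near-identical copies in the same chromosome band, also widened with TWEAK in control cells (0.83 and 1.03).

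**Figure D5:**
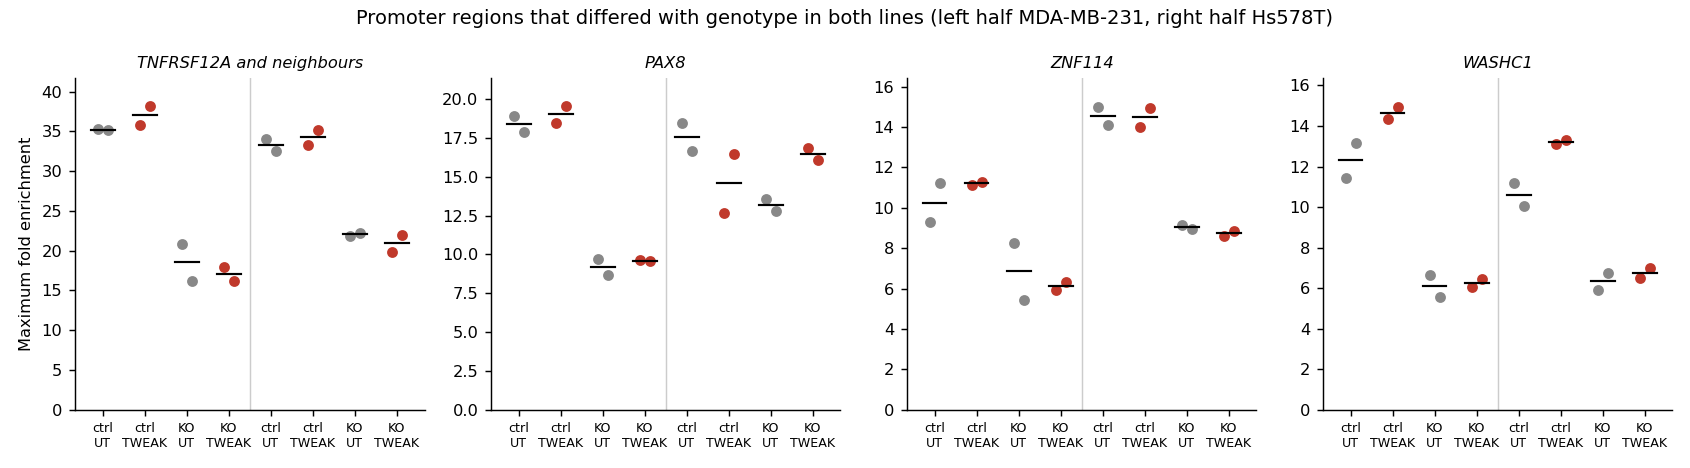
Maximum fold enrichment in each list for 4 regions that were lower in untreated Fn14KO than in untreated control cells of both lines (grey points untreated, UT, red points TWEAK, black bars the mean of 2 lists, MDA-MB-231 at the left of a panel). At the TNFRSF12A region the control lists sit at 32.6 to 38.2 and the knockout lists at 16.2 to 22.3, and at PAX8 the Hs578T sets overlap.

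By height more promoters were called between the lines than with TWEAK in control cells, and by covered length fewer were called. The lower number in covered length is one of calls and does not show smaller differences between the lines. The median absolute log2 difference in covered length was 0.167 between the lines in untreated control cells. With TWEAK it was 0.141 in control MDA-MB-231 cells and 0.144 in control Hs578T cells. Fold enrichment was higher in MDA-MB-231 at 3327 promoters and lower at 574, or 36.7% in all against 34.4% of all regions, but 1365 and 1327 in the start-site window. Covered length differed at 130 promoters, 68 higher and 62 lower in MDA-MB-231 (2.11% of all regions called), and 22 and 88 without centring. PAPPA, a protease of insulin-like growth factor binding proteins, covered 4672 and 6162 bp in MDA-MB-231 against 686 and 556 bp in Hs578T untreated control cells (3.25 ± 0.19, limma adjusted p = 9.5e-06). HS3ST3B1, a heparan sulphate sulphotransferase, covered 6584 and 6427 bp against 1592 and 850 bp. IL7, a lymphocyte growth factor, covered 1017 and 1216 bp against 272 and 654 bp, and also widened with TWEAK in control cells (0.73 and 1.85, the first with a limma adjusted p = 0.25). The IL7 call between lines was lost without centring and in the start-site window (limma adjusted p = 0.07 and 0.113). In the other direction GNA12, a G protein subunit, covered 911 and 1078 bp against 4299 and 6503 bp. INPP4B, a lipid phosphatase, covered 322 and 584 bp against 2220 and 2284 bp, and 2268 and 1607 bp in untreated MDA-MB-231 knockout cells (2.19 ± 0.23 against control, limma adjusted p = 0.00097).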

How the data were processed

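The study measured H3K27ac by ChIP-seq. After trimming with Trimmomatic and alignment by Bowtie2 to hg38, the authors called broad peaks against input with MACS2 in each sample and took out blacklisted regions with bedtools (versions not given in the sources used here). The deposited lists give, per peak, a display score (not used), the fold enrichment over input, which is a ratio, and −log10 p and −log10 q values. For broad peaks MACS2 averages these over the peak, and no summit is given. They hold no read counts, so DiffBind, the study's tool, was not run, the depth is unknown, and no counting interval can be given.

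Peaks sharing 1 bp were merged over the 16 lists and matched to GENCODE 44 protein-coding transcript starts. A peak reached no position past the end of its chromosome in the reference (0 peaks). Covered length (bp of a region under peaks) and maximum fold enrichment were taken in log2, centred on each list's median over 28337 regions, and fitted with limma 3.58.1 (trend) in R 4.3.3 with 8 groups of 2 lists. Benjamini-Hochberg values over 28337 regions were called under 0.05. Medians per list were compared by exact permutation within strata. Samples were grouped by their labels. No batch was named in the labels. The scripts were tested on simulated data. Python 3.11.15, numpy 2.4.6 and pandas 2.3.3 were used.

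A region bears the name of the gene with the nearest start. Genes named are the 10 that rose and 10 that fell most by covered length and the 5 and 5 by fold enrichment in both control lines only, ranked by the smaller control-line change, up to 5 each way for genotype (called in both lines) and line by covered length, up to 4 called genes of each of 15 gene lists, TNFRSF12A and NAMPT; 3 genes are not reported here. The members and lists were chosen with earlier results of these data known. Alternatives were no centring, only peaks with −log10 q of at least 2, lists trimmed to 39544 peaks, a start within 1 kb, at least 500 bp in every list, a 2 kb window, a replicate block and each list left out, and quantile normalization, which was chosen after seeing the data. The NF-kB motif needs ambiguous letters and is given by name.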

Additional observations from a re-analysis of the deposited data

Results flagged for a closer look

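Differences of effects between groups were tested as interaction terms by limma over 28337 regions, with adjusted p-values. The TWEAK effect differed between control and Fn14KO cells at 2314 promoter regions in fold enrichment (21.8%, against 32.7% of all regions) and at 303 in covered length (2.85% against 6.12%). The effect of the knockout in untreated cells differed between MDA-MB-231 and Hs578T at 1586 regions in fold enrichment and 25 in covered length, where the MDA-MB-231 knockout lists had lower median fold enrichment and −log10 q than the control lists of that line, and the part of that in the counts was not tested. The TWEAK effect in control cells differed between the lines at 1 region in covered length. Groups of 2 lists were too small for a test of outlying lists.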

How the results depend on the processing

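Depth is unknown, and with 2 lists a group the spread is pooled over 8 groups. When a list was left out, its partner was assumed to vary like the other groups. The per-list tests kept their side of the threshold under every alternative. For the tests within 1 genotype this was fixed in advance, as their smallest p by exact permutation was 0.0556. The fold enrichment counts for TWEAK in control cells, higher and lower together, kept within 1.5 times under every alternative other than leaving out a list. Their split into higher and lower depended on the scaling, as given above.

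In the 2 kb window the covered-length counts were 151 for TWEAK in MDA-MB-231 control cells (410 as reported), 104 in Hs578T control cells (280), 49 for line (130), 83 for both control lines only (263), 45 for the knockout in MDA-MB-231 (95) and 2 in Hs578T (14), and the fold enrichment counts were 1531 for the knockout in MDA-MB-231 (2452), 33 in Hs578T (118) and 2 for TWEAK in the Hs578T knockout (0). Without centring the knockout gave 44 and 8 in covered length and 4484 and 47 in fold enrichment (MDA-MB-231 and Hs578T), and after quantile normalization 1563 in fold enrichment in MDA-MB-231. The Hs578T knockout count in covered length was 9 with the stricter q, the trimmed lists or 500 bp. TWEAK in the MDA-MB-231 knockout gave 1 in covered length (2 as reported) without centring, after quantile normalization, in trimmed lists and in the window.

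The difference between replicates 1 and 2 was correlated between untreated and TWEAK lists of the same line and genotype. These correlations ran from -0.0149 to 0.203, and the main fit had no replicate block. Pairing by replicate number across genotypes or lines was not checked this way. With the replicate block the covered-length counts were 33 and 2 for the knockout in MDA-MB-231 and Hs578T, 52 for line and 0 for TWEAK in the MDA-MB-231 knockout, and no other count moved by over 1.5 times. Under the block FGFR1 and ANXA8L1 lost the knockout call in 1 line and IL7 the line call in covered length, and TIGD7 and CHPF in fold enrichment.

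Leaving out 1 list gave, in covered length, 173 to 440 for TWEAK in MDA-MB-231 control cells (173 to 272 without any 1 of its own 4 lists), 97 to 296 in Hs578T control cells (97 without TWEAK replicate 1, 136 and 102 without untreated replicate 1 and 2), 0 to 55 in the MDA-MB-231 knockout (55 without its untreated replicate 1, 21 and 14 without TWEAK replicate 1 and 2), 0 to 1 in the Hs578T knockout, 183 to 273 for both control lines only, 19 to 221 for the knockout in MDA-MB-231 (221 and 19 without its untreated replicate 1 and 2, 33 without control untreated replicate 1), 6 to 15 in Hs578T (6 to 9 without any 1 of its untreated or TWEAK control lists or untreated knockout lists) and 32 to 150 for line (36 without MDA-MB-231 control untreated replicate 1, 66 and 32 without those of Hs578T). In fold enrichment it gave 1549 to 2676 for TWEAK in MDA-MB-231 control cells (1549 without TWEAK replicate 2, 1626 without untreated replicate 1), 1160 to 1918 in Hs578T control cells (1160 and 1253 without TWEAK and untreated replicate 1), 1704 to 1981 for both control lines only, 0 to 0 in both knockouts, 1040 to 2525 for the knockout in MDA-MB-231 (1040 without control untreated replicate 1, 1594 and 1309 without its untreated replicate 1 and 2), 19 to 132 in Hs578T (22 without control untreated replicate 1, 19 and 66 without its untreated replicate 1 and 2) and 2451 to 3924 for line (2451 without MDA-MB-231 control untreated replicate 1).

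Among named regions, 3 values changed sign. The mean control TWEAK change of CCN2 in fold enrichment was -0.62 in the window, between -0.076 (without Hs578T control TWEAK replicate 2) and 0.28 when 1 list was left out, with -0.066 without Hs578T control untreated replicate 2. In all, 2631 named values kept direction and call and 191 lost the call. Causes were not tested.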
